A study of Danio rerio with 15 samples.

Results

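The 52 transcripts described here had a mean abundance that was higher at each successive concentration of dibutyl phthalate (DBP) in whole zebrafish embryos, from 0 through 5, 10 and 50 to 100 μg/l. They were chosen by their measured values from the 46488 transcripts listed. The measure was CPM, the estimated counts of a transcript in 1000000 counts of its library. A member had 5 strictly ordered dose means, a mean at 100 μg/l at least 1.5 times that of the controls, every 100 μg/l library above both controls used, a mean of at least 5 CPM over 14 libraries and a listed length under 9000 bases. Transcripts whose libraries at 10 to 100 μg/l all lay above those at 0 and 5 μg/l (8), or whose 100 μg/l libraries all lay above the other 11 libraries (9), were left out. The ordering of the dose means is therefore how the members were found and is given as a description, without a test.

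Embryos of the wild-type AB strain were kept for 120 h, starting at the 256-cell stage and ending at the protruding mouth stage, in fish water with 0, 5, 10, 50 or 100 μg/l DBP. No solvent was used at any dose, so the controls, at 0 μg/l, had fish water alone. Each dose had 5 beakers of 30 embryos, a pool of 10 embryos was 1 sample, and the 3 RNA samples of highest quality per dose were sequenced, which gave 15 poly-A libraries named by a replicate letter. In one place the deposited protocol text gives 30 in place of 50 μg/l, whereas the titles of the samples have 50, the value taken here.

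DBP is a phthalate ester that is added to plastics to soften them and is known in vertebrates as an endocrine disruptor. A concentration series separates transcripts whose abundance changes step by step from those that change at one concentration and then stay level, or that turn back. The embryos of this stage have formed their main organs, and a pool of whole embryos mixes the RNA of every tissue. For a rise, more cells of a type and more RNA per cell therefore cannot be told apart. The sources used here pair only a few transcript identifiers with gene names and none of those is a member, so pathways, tissue markers and the other transcripts of the members' genes are not analysed here. The 2 members with the largest ratio are given by identifier and the others by their coding length, since 92.5% of the listed lengths were multiples of 3 and no 2 members shared a length.

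Control B was not used to choose the members. It stood apart from controls D and E, with a median absolute difference of 0.27 and 0.34 on the log2(CPM + 0.5) scale over the transcripts of the members' limits of level and length, compared with 0.15 between controls D and E, while the deposited labels mark control D as the outlier. The other 14 libraries held 17.2 to 27.99 M estimated counts (1 M is 1000000 counts), with a median of 23.5 M. At these depths a count of 0 allows up to 3 counts, or 0.107 to 0.174 CPM, which covers counting error only. With 2 controls and 3 libraries per exposed dose, the spread between pools limits the precision of each mean. The study had 5 beakers and 5 replicate pools per dose, but does not state that each pool came from its own beaker. Pools of different beakers and repeated pools of 1 beaker are not told apart by the labels, so the spread may leave out part of the difference between beakers.

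Of the 52 members, 32 had a mean at 100 μg/l between 1.503 and 2 times that of controls D and E, 20 reached 2 times, 9 reached 3 times and 6 reached 10 times. Control B had no part in these ratios, and some of the largest would be lower with it. The median ratio was 1.77, with a control mean at or below the mean CPM of 3 counts set to that floor. The members with the largest ratios were those nearly or fully without counts in the controls. ENSDART00000075897.6, of 849 coding bases, had 0.254 and 0 CPM in controls D and E, of which the first rests on 7 counts. It had 0, 0 and 4.95 CPM at 5 μg/l, 0, 0 and 20.7 CPM at 10 μg/l, 0, 0 and 27.3 CPM at 50 μg/l and 8.76, 24.4 and 35.9 CPM at 100 μg/l. A single library therefore carried each mean at 5, 10 and 50 μg/l, with 125 counts in replicate E, 544 in replicate C and 634 in replicate D, and only at 100 μg/l did all 3 libraries hold counts. Its mean of 23.0 ± 13.6 CPM at 100 μg/l (SD, n = 3) was 181 times that of the controls, 90.7 times without control E and 125 times with control E set to 3 counts. In the last case ENSDART00000142027.3, at 165 times, and the member of 3126 coding bases, at 129 times, came before it. It would then not be among the 2 members with the largest ratio.

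ENSDART00000142027.3, of 2397 coding bases, was more even between pools. It was at 0 in both controls, at 6.64, 0 and 0 CPM at 5 μg/l, at 5.52, 10.5 and 6.44 CPM at 10 μg/l, at 9.54, 15.2 and 18.3 CPM at 50 μg/l and at 15.7, 21.6 and 19.9 CPM at 100 μg/l. Every library from 10 μg/l upwards held it, and the libraries at 100 μg/l did not overlap those at 10 μg/l. Its mean of 19.1 ± 3.05 CPM at 100 μg/l (SD, n = 3) was at least 165-fold higher than the controls, each set to 3 counts.

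**Figure D1:**
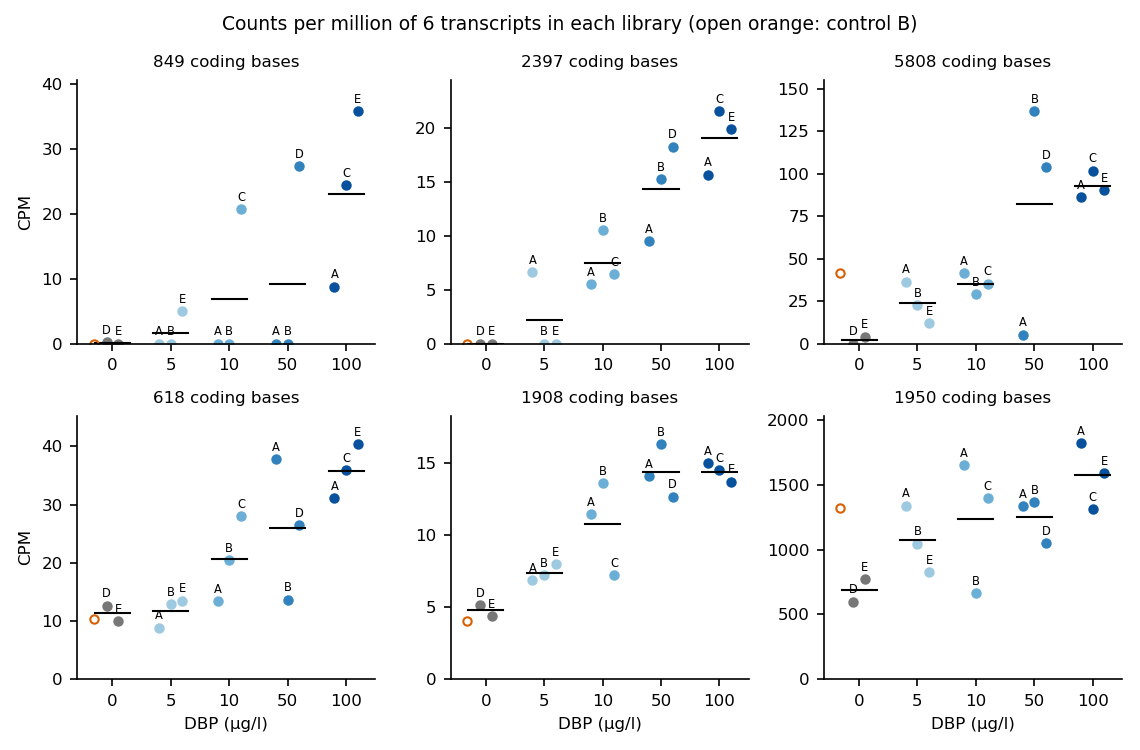
CPM (vertical axes, from 0) of 6 members in each library against DBP concentration in μg/l, each panel headed by the coding length. Filled points are libraries with their replicate letter, bars are dose means and the open orange point is control B. The members of 849 and 2397 coding bases are near 0 in the controls, the member of 1908 coding bases has libraries from 13.7 to 15.0 CPM at 100 μg/l, and the member of 1950 coding bases has 598 CPM or more in every library.

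Controls D and E were also both at 0 for the members of 3126 and 2271 coding bases. The first had 19.4, 14.6 and 11.0 CPM at 100 μg/l, where its mean was at least 129-fold higher than the control floor, but was at 0 in 2 libraries at 5 μg/l and in 1 at 10 μg/l. The second had 15.7, 9.89 and 6.74 CPM at 100 μg/l, at least 92.9-fold higher than the floor, and its mean at 10 μg/l came from 1 library of 22.4 CPM beside 2 at 0. The member of 5808 coding bases had 86.1, 102 and 90.1 CPM at 100 μg/l, against 0 and 4.03 CPM in the controls, and 5.19, 137 and 104 CPM at 50 μg/l, where the libraries spread more widely than at any other dose. The member of 519 coding bases had 17.98, 25.5 and 26.2 CPM at 100 μg/l, against 2.16 and 0 CPM in the controls. Control B, not used by the rule, had 22.3, 0, 41.3 and 3.17 CPM of the members of 3126, 2271, 5808 and 519 coding bases. The control values and folds given above for these members refer to controls D and E only. In all, 8 of the 52 members (15.4%) were at 0 in at least 1 of the 14 libraries, compared with 539 (3.18%) of the 16927 transcripts that met the same limits of level and length. The rule favoured low values in the controls and at the lower doses, so nothing is read from this difference. Salmon divides reads that match several transcripts among them, so the value of a member that shares sequence with another transcript is uncertain.

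Below these, the members of 540 and 618 coding bases had counts in every library. The member of 540 coding bases averaged 6.45 ± 3.13 CPM in the controls (n = 2), 7.86 ± 2.92 CPM at 5 μg/l, 40.5 ± 21.1 CPM at 10 μg/l, 42.4 ± 35.5 CPM at 50 μg/l and 44.2 ± 11.9 CPM at 100 μg/l (SD, n = 3 each). Its step lay between 5 and 10 μg/l, and the 3 upper doses overlapped throughout, with 79.0 and 8.11 CPM as the extremes at 50 μg/l. The member of 618 coding bases had 12.6 and 9.98 CPM in the controls, 8.84 to 13.5 CPM at 5 μg/l, 13.4 to 28.01 CPM at 10 μg/l, 13.6 to 37.8 CPM at 50 μg/l and 31.1 to 40.4 CPM at 100 μg/l. Its libraries at 100 μg/l lay above all of those at 0, 5 and 10 μg/l and overlapped those at 50 μg/l. The member of 1908 coding bases had 5.15 and 4.39 CPM in the controls, 6.88, 7.24 and 7.97 CPM at 5 μg/l, 11.5, 13.6 and 7.23 CPM at 10 μg/l, 14.1, 16.3 and 12.7 CPM at 50 μg/l and 15.0, 14.5 and 13.7 CPM at 100 μg/l. Here the mean at 50 μg/l, 14.4 ± 1.85 CPM, and that at 100 μg/l, 14.4 ± 0.638 CPM (SD, n = 3 each), were almost the same, and the coefficient of variation at 100 μg/l, 4.43%, was the lowest of the 52 members.

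Most members were of modest abundance. The mean over the 14 libraries lay between 5.09 and 20 CPM for 39 members, with a median of 12.7 CPM, compared with a median of 16.4 CPM over the 16927 transcripts. Per length, the members had a median of 4.32 TPM (the counts scaled for length and library), compared with 4.20 TPM over the 16927 transcripts. The most abundant per length were the members of 360, 1950 and 324 coding bases, at 346, 249 and 192 TPM, and no other member exceeded 100 TPM. The member of 1950 coding bases had the most counts, with 598 and 773 CPM in the controls, 1341, 1048 and 827 CPM at 5 μg/l, 1655, 666 and 1399 CPM at 10 μg/l, 1338, 1368 and 1051 CPM at 50 μg/l and 1825, 1312 and 1592 CPM at 100 μg/l. Its 100 μg/l libraries lay above controls D and E and overlapped those of 5, 10 and 50 μg/l, and the ratio of the outer means was 2.30. Control B, not used for this ratio, had 1322 CPM, above replicate C at 100 μg/l. The member of 360 coding bases had 212, 153 and 112 CPM at 100 μg/l, against 107 and 103 CPM in controls D and E, so that its lowest 100 μg/l library was close to these controls. It had 151 CPM in control B, above that lowest library.

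The shape of the rise differed between members. Taking the difference in mean CPM between 100 and 0 μg/l as 100%, the median member had reached 21.4% of it at 5 μg/l, 45.5% at 10 μg/l and then 79.8% at 50 μg/l. The interquartile range lay between 9.91 and 33.5% at 5 μg/l, between 32.3 and 63.9% at 10 μg/l and between 61.8 and 91.2% at 50 μg/l. The largest single step was that between 10 and 50 μg/l in 18 members, between 50 and 100 μg/l in 13, between 5 and 10 μg/l in 13 and between 0 and 5 μg/l in 8. The highest share at 5 μg/l was 76.7%, in the member of 3360 coding bases, with means of 8.26 ± 2.60 CPM in the controls (n = 2), 11.9 ± 3.56 CPM at 5 μg/l and 13.01 ± 3.74 CPM at 100 μg/l (SD, n = 3 each). The lowest share at 50 μg/l was 28.9%, in the member of 546 coding bases, with 12.1 and 10.9 CPM in the controls, 18.1, 14.7 and 8.80 CPM at 50 μg/l and 25.9, 16.7 and 16.4 CPM at 100 μg/l.

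**Figure D2:**
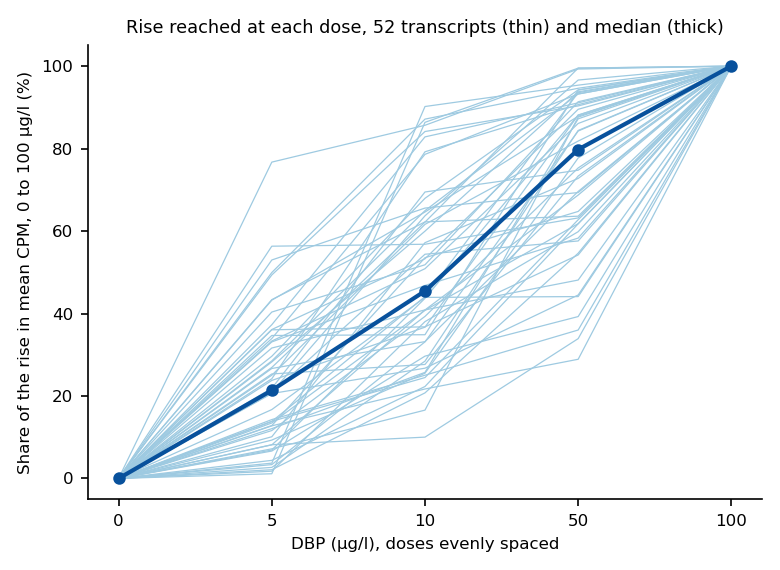
Share of the rise in mean CPM between 0 and 100 μg/l that each of the 52 members (thin lines) and their median (thick line) had reached, in percent, against DBP concentration in μg/l at even spacing. The median stands at 21.4% for 5 μg/l, 45.5% for 10 μg/l and 79.8% for 50 μg/l, and the lines are widest apart at 10 μg/l, between 10.0 and 90.2%. All lines start at 0 and end at 100% and none turns down, since the rule ordered the means.

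The means were ordered, but the libraries of neighbouring doses mostly overlapped. Every library at 5 μg/l lay above both controls in 14 members, compared with 9.19% of the 32350 transcripts that passed the filter of the test below. At 10 μg/l this held for 17 members, compared with 14.5% of these transcripts, and at 50 μg/l for 44 members, compared with 14.4%. Between neighbouring exposed doses it was rarer in the members. There, 3 libraries were set against 3 and not against 2 controls, which makes full separation harder by itself. Every library at 10 μg/l lay above those at 5 μg/l in 3 members (6.45% of these transcripts), every library at 50 μg/l above those at 10 μg/l in 4 members (2.08%) and every library at 100 μg/l above those at 50 μg/l in none (7.71%). The rule used these contrasts, and removed transcripts whose 100 μg/l libraries lay above all others, so nothing is read from the counts beside their backgrounds.

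The rule did not name an order of the 3 libraries within an exposed dose, but the dose means and the limits on the lowest libraries were made of these same values. The order within doses is therefore given as a description, and nothing is read from its difference from other transcripts. In 36 of the 52 members (69.2%) the highest of the 100 μg/l libraries was replicate A, compared with 44.8% of the 16927 transcripts of the same limits. The members of 564, 912 and 2334 coding bases were clear examples, with 179, 90.03 and 92.2 CPM, 108, 48.7 and 48.4 CPM, and 26.6, 12.9 and 9.59 CPM in replicates A, C and E. Replicate A was over 1.5 times the next library in 10 of its 36 members, while the highest library exceeded the next by this factor in 1 of the other 16 members. The median ratio to the mean of the controls was 2.17 for replicate A, 1.67 for replicate C and 1.498 for replicate E, and 48, 37 and 25 members reached 1.5 times in these libraries.

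Library totals moved with this order. At 100 μg/l replicate A had the fewest counts of all 14 libraries, 17.2 M, replicate C had 24.0 M and replicate E had the most, 27.99 M. In each exposed dose the library with the most counts was the one in which the largest number of members was lowest, and the same library was the one most often lowest over the 16927 transcripts. This was replicate E at 5 μg/l (25.4 M counts) for 25 members (48.1%, compared with 36.8% of the 16927 transcripts), replicate C at 10 μg/l (26.2 M) for 30 members (57.7%, compared with 43.5%), replicate D at 50 μg/l (23.2 M) for 25 members (48.1%, close to the 46.7% of these transcripts) and replicate E at 100 μg/l for 31 members (59.6%, compared with 38.0%). At 5 μg/l replicate A was lowest in nearly as many of the 16927 transcripts, 36.5%. In the same order, these 4 libraries were also the highest of their dose in 40.7, 37.5, 26.3 and 39.8% of the 16927 transcripts. Their median deviations over these transcripts were 0.009, -0.026, -0.050 and 0.003 on the log2 scale. The median deviation of the members from their dose mean was -0.14, -0.24, -0.13 and -0.15 on this scale in these 4 libraries and 0.22 in replicate A at 100 μg/l. The totals also differed between doses, with 25.9 M in each of controls D and E and means of 23.1, 22.8, 22.0 and 23.1 M at 5, 10, 50 and 100 μg/l. The part of library size in the ordering of the dose means was not tested. Replicate E at 100 μg/l held more counts than either control. In every member it lay above both controls, with a lowest ratio to their mean of 1.07. The rule required it to lie above them, so nothing is read from this about library size.

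**Figure D3:**
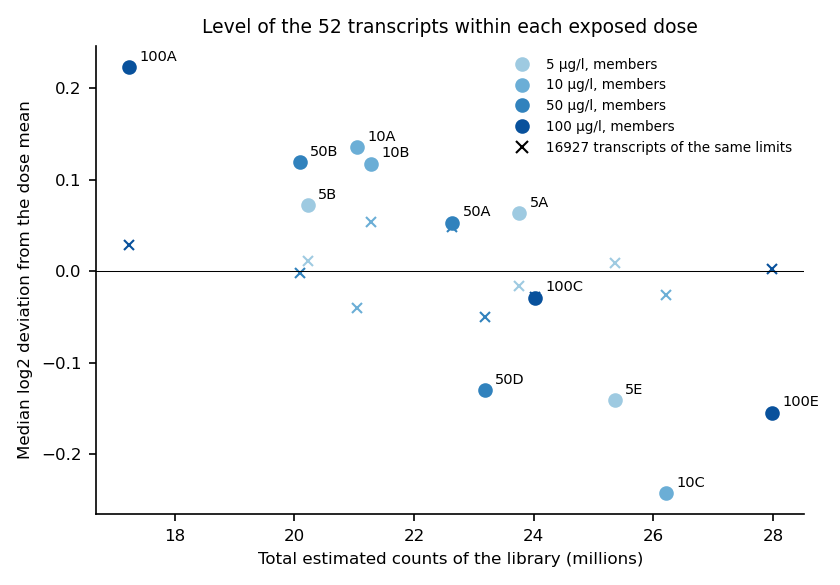
Median deviation of the 52 members from their dose mean (filled points, log2 scale) in each of the 12 exposed libraries against the total of estimated counts in M. Crosses give the same median over the 16927 transcripts of the same limits, and labels give dose and replicate. The members lie highest in replicate A at 100 μg/l (0.22 at 17.2 M counts) and lowest in replicate C at 10 μg/l (-0.24 at 26.2 M counts), whereas the crosses lie between -0.05 and 0.05.

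A few members ran the other way. Among the 36 members highest in replicate A at 100 μg/l, replicate C was the lowest library at 10 μg/l in 26 and the highest in 3. Among the 7 members highest in replicate E at 100 μg/l, it was the lowest in none and the highest in 5. These 5 included the members of 849, 540 and 618 coding bases, with 20.7, 57.0 and 28.01 CPM in replicate C at 10 μg/l beside 0, 16.7 and 13.4 CPM in replicate A of that dose. The members of 1443 and 2856 coding bases were the others, with 22.1 and 25.4 CPM beside 9.22 and 16.2 CPM. This split was not particular to the members. Over the 32350 transcripts of the test below, deviations from the dose mean in replicate C at 10 μg/l correlated at 0.49 with those in replicate E at 100 μg/l. With those in replicate A at 100 μg/l they correlated at -0.43. The deviations of a dose sum to 0 in each transcript, so this second value is not independent of the first. The subsets were made from the same libraries in which they are described, and no test was run on them.

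Control B itself was not used by the rule. The members were chosen for low values in controls D and E, however, so a comparison of control B with these 2 libraries is a description from which nothing is read. Control B held 24.0 M counts, fewer than controls D and E. In 35 of the 52 members (67.3%) control B was above both other controls, compared with 36.4% of the 16927 transcripts, in 6 (11.5%, compared with 15.4%) it lay between them and in 11 (21.2%, compared with 48.2%) it was below both. The median over the members was 17.7 CPM for the mean at 100 μg/l, against 10.6 CPM in control B, 8.28 CPM in control D and 7.18 CPM in control E. Control B was below every 100 μg/l library in 30 members (57.7%), compared with 31.3% of the 16927 transcripts, and above every 100 μg/l library in 8 members (15.4%), compared with 29.4%. The 100 μg/l libraries were also used by the rule. With control B as the third control the median ratio over the same 52 members was 1.59. Both members given by identifier were at 0 in control B, whereas the member of 3126 coding bases, at 0 in controls D and E, had 22.3 CPM in control B, above its 3 libraries at 100 μg/l. The member of 1734 coding bases had 25.2, 16.3 and 24.2 CPM at 100 μg/l, against 132.8, 12.2 and 13.9 CPM in controls B, D and E. The members of 1017 and 324 coding bases lay far below, with 0 and 6.13 CPM in control B, against 13.8 and 11.8 CPM and 41.9 and 51.4 CPM in controls D and E.

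**Figure D4:**
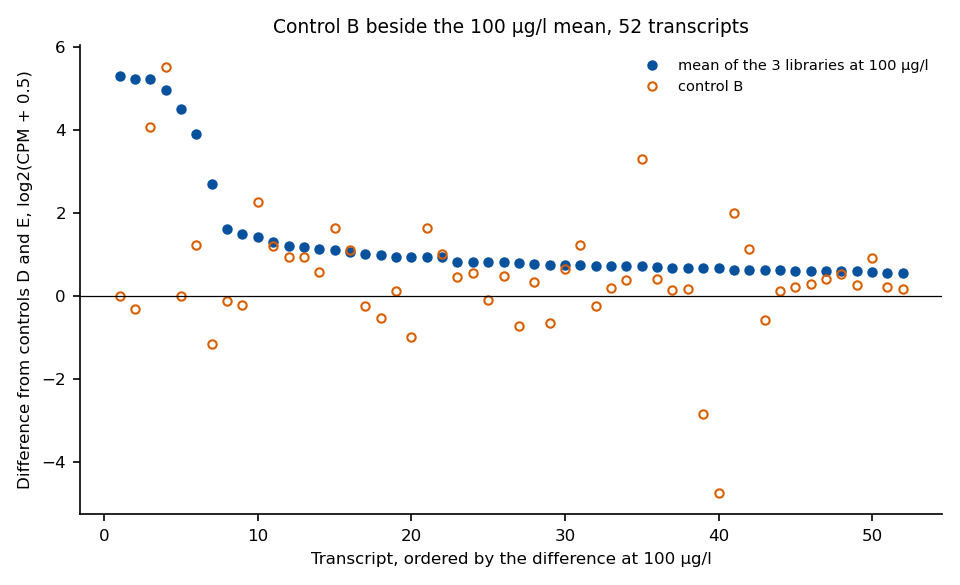
Difference from the mean of controls D and E on the log2(CPM + 0.5) scale for the mean of the 3 libraries at 100 μg/l (filled) and for control B (open), over the 52 members ordered by the filled points. Control B lies above 0 in most members, with a median of 0.31 compared with 0.79 for the 100 μg/l mean, and above the filled points in some. Its excess over the filled point is greatest for the member of 1734 coding bases.

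Many members were short. Their median coding length was 984 bases, compared with 1452 bases over the 16927 transcripts, and 27 members (51.9%) were shorter than 1000 bases, compared with 30.4%. The lengths ran from 288 to 8988 bases, and the length limit of 9000 bases removed no transcript. The members also varied more between pools, with a median coefficient of variation at 100 μg/l of 21.0%, compared with 14.4%. It ran from 4.43% in the member of 1908 coding bases to 59.12% in that of 849 coding bases. Both comparisons set 52 chosen transcripts beside all others and carry no test. The coefficient of variation was computed from the 100 μg/l values that the rule used, so nothing is read from its difference.

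Values lay close together on both sides of the thresholds. Just inside the ratio limit lay the members of 756, 360 and 1356 coding bases, with ratios of 1.503, 1.513 and 1.520, and just outside it lay transcripts of 513, 672 and 867 coding bases, with 1.499, 1.495 and 1.494. At the level limit the members of 2325, 591 and 597 coding bases had means of 5.09, 5.18 and 5.71 CPM, and the nearest excluded transcripts had 4.98, 4.86 and 4.83 CPM. Of all transcripts listed, 508 had strictly rising dose means and 711 strictly falling ones, and the rule found 52 members, compared with 120 transcripts when its directions were turned round. Within the limits of level and length the strictly ordered shares were 1.71% rising and 2.29% falling. The number of members depended on single libraries. It was 26 without replicate C at 10 μg/l, of which 22 were among the 52. Without replicate A at 100 μg/l it was 25 (19 shared), and without replicate E at 100 μg/l it was 107 (44 shared).

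A quadratic trend over the dose ranks was fitted to all 32350 transcripts that passed a filter on low counts (edgeR's quasi-likelihood test, Benjamini-Hochberg adjustment over all of them, threshold of 0.05). All 52 members passed the filter. The trend was called with a fitted rise in 5 members, compared with 175 transcripts or 0.541% of those tested. In the same test 38 members had an unadjusted p under 0.05, compared with 4187 of the 32350 transcripts, counted with a fitted rise. The members were selected on the same dose means, so both counts are a description and nothing is read from them. The number called also depended on the libraries, and the calls over all transcripts moved too. It was 11 members without replicate C at 10 μg/l, beside 257 rising calls among all 32157 transcripts tested. Without replicate E at 100 μg/l it was 14 members, beside 403 rising calls among 32162. Without any other library it lay between 1 and 4 members, beside 35 to 108 rising calls over all transcripts. The 5 members called with all 14 libraries had coding lengths of 618, 1908, 612, 981 and 987 bases, and ratios of 3.17, 3.02, 2.33, 1.63 and 1.57. The members with the largest ratios, including both given by identifier, were not among them. The median coefficient of variation at 100 μg/l was 9.54% over the 5 called members, compared with 22.2% over the other 47. The test sets a change against the spread between libraries, so a low spread favours a call and nothing is read from this difference. The member of 612 coding bases had 10.9, 11.2 and 9.90 CPM at 100 μg/l, against 4.18 and 4.93 CPM in the controls. The member of 987 coding bases had 12.2, 11.2 and 10.1 CPM at 100 μg/l, against 6.87 and 7.38 CPM in the controls, and means of 7.23, 8.27 and 10.5 CPM at 5, 10 and 50 μg/l. In both, and in the called members of 618 and 1908 coding bases, the 3 libraries at 100 μg/l lay closer to each other than to either control. This did not hold in the called member of 981 coding bases. It had 21.4, 14.6 and 15.7 CPM at 100 μg/l, against 10.1 and 11.1 CPM in the controls.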

How the data were processed

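Whole zebrafish embryos were profiled by poly-A RNA sequencing as 75 base single reads. The authors trimmed the reads with Trimmomatic and assigned them with Salmon 1.5.1 to the zebrafish reference transcriptome, written GCRz11 in their methods. The deposited estimated counts per transcript are not scaled for depth or length, and the deposited TPM values are scaled by the authors for both. Counts were read from the table of the whole series after they had been checked to match the file of each sample, where decimal commas for control B were taken as decimals.

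CPM was computed here from the estimated counts without control B. The members and lists were chosen with earlier results of these data known. The rule for printed identifiers was the 2 members with the largest ratio of the outer means, with a control mean at or under the mean CPM of 3 counts set to that floor, and the 3 transcripts on each side of a limit. Lists of genes and tissue markers were not applied, because none of the few transcripts that the sources used here pair with gene names is a member, and sequences, base composition and chromosomes are not analysed here.

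For the trend, counts rounded to whole numbers were scaled by TMM and fitted with edgeR 4.0.16 (glmQLFit and glmQLFTest, R 4.3.3) on the linear and quadratic terms of the dose ranks jointly. Transcripts needed 10 counts at the median library size in 2 libraries and 15 in total. The step was run on simulated data with known linear changes in transcripts of many counts, all with the same spread between libraries. These settings are simpler than the data, so how well the step finds changes like those of the members is not known from them. Alternatives used DESeq2 1.42.0, limma 3.58.1 on log2(CPM + 0.5), other scalings, filters and models, and each library left out in turn. The 14 libraries held 17.2 to 27.99 M counts, and their number limits the precision. Tables and figures were made with Python 3.11.15, pandas 2.3.3, numpy 2.4.6 and matplotlib 3.10.9.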

Additional observations from a re-analysis of the deposited data

Results flagged for a closer look

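Control B, which was not used to choose the members, was above both other controls in 35 of the 52 members (67.3%), compared with 36.4% of the 16927 transcripts of the same limits of level and length. The members were chosen for low values in the other 2 controls. In the member of 1734 coding bases it had 132.8 CPM, against 12.2 and 13.9 CPM in controls D and E. Both values come from a library outside the comparisons.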

How the results depend on the processing

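The number of members was 52 and moved to 80 with median-of-ratios scaling (46 shared), 29 with TPM in place of CPM (11 shared), 83 with control B in place of control E (23 shared), 20 at a least ratio of 2, 32 at a least mean of 10 CPM and 116 at a least mean of 1 CPM. With TPM, 28 of the 52 members had a mean under the limit of 5 and 19 did not have strictly rising means. It was 53 with all 15 libraries (24 shared), 66 with control B in place of control D (23 shared) and 52 without the length limit. Leaving out 1 library gave between 25 and 107, with between 19 and 44 shared. Median-of-ratios scaling moved the median of all transcripts by 0.06 on the log2 scale between 100 and 0 μg/l. The transcripts with a called fitted rise numbered 175, and 99 without the filter, 1743 with the DESeq2 likelihood ratio test, 264 with limma, 382 with a linear trend, 21 with dose as a factor and 100 with all 15 libraries. Leaving out 1 library gave between 35 (without replicate C at 100 μg/l) and 403 (without replicate E at 100 μg/l), and moved the count by over 1.5 times for every library other than replicate C at 10 μg/l (257). With dose as a factor (edgeR), 31 members had an unadjusted p under 0.05, compared with 2128 of the 32350 transcripts, counted with a fitted rise. Of the 52 members, 5 were called, 34 with DESeq2, 11 with limma, 21 with a linear trend and 0 with dose as a factor, and between 1 and 14 with 1 library left out. The cause of these shifts was not tested. With the replicate letter as a block, 9 rising transcripts and 1 member were called. Whether the letters pair the samples was not tested. Of 14 same-letter pairs, 7 had a correlation of deviations over 0.1 (range -0.08 to 0.25), and 3 of 14 libraries correlated best with their own letter. The planned count of other transcripts of the members' genes was not run, because no table used here gives the genes of the members. The median ratio over the same 52 members lay between 1.59 and 1.96 under the 9 alternatives tried for it. Libraries were left out only at 0 and 100 μg/l, and a floor of 3 counts on each control was added after the data were seen. The members were held fixed and had been chosen for a ratio of at least 1.5, so nothing is read from this range. Counts of 0 allow up to 3 counts per library, and the low members rest on few counts (lowest mean 115 counts).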
